A study of Mus musculus with 12 samples.

Results

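The genes described here are 5 facilitative glucose transporters (Slc2a1, Slc2a3, Slc2a4, Slc2a8 and Slc2a10), the alpha-arrestins Txnip and Arrdc4, and the Mondo family transcription factors Mlxip and Mlxipl with their partner Mlx. They were chosen by name for their roles in glucose entry and glucose sensing, were matched to the gene table by Ensembl identifier, and make up 10 of its 53707 genes. RNA-seq was performed on retinal explants, whole retinas kept alive in culture, from wild-type C57BL/6J mice at 28 days of age. Explants were cultured for 48 hours in Neurobasal-A medium with 5 mM or 25 mM glucose, and medium, supplements, strain, age and duration were the same in both groups. Each glucose concentration had 3 biological replicates, and each of these was measured as 2 technical replicates, the first in batch 1 and the second in batch 2, which gave 12 libraries. The sources do not say at which step, tissue, RNA or library, the technical replicates part. The labels do not say how many retinas or animals entered a biological replicate, and p-values measure the spread between these samples only.

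Glucose enters retinal cells down its concentration gradient through transporters of the SLC2 (GLUT) family. In the retina GLUT1, encoded by Slc2a1, is the main carrier in the blood vessels, in the pigment epithelium and in photoreceptors and Mueller glia. MondoA (encoded by Mlxip) and ChREBP (encoded by Mlxipl) form dimers with MLX, sense glucose 6-phosphate and bind carbohydrate response elements, and Txnip and Arrdc4 are their best known shared targets. TXNIP binds GLUT1 and GLUT4 and promotes their removal from the cell surface, which closes a feedback loop on glucose entry, and it also binds thioredoxin.

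The promoter sequences show where such elements lie. A carbohydrate response element is a pair of E-boxes (CACGTG) set 5 bases apart, in which the fifth letter of each box was left free here (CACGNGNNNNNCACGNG, searched on both strands). Of 32851 mouse promoters of 300 bases, each running from 250 bases before to 50 after the start site in RefSeq (GRCm38.p6), 0.0487% held this element and 7.15% held an E-box. The table had 9 promoters for 8 of the 10 genes, all but those of Slc2a3 and Slc2a4. Among them the element in this spelling was found only in the promoter of Txnip. An E-box was found in those of Arrdc4, Mlx and 1 of the 2 promoters of Mlxipl. Pairs with other letters changed, or with the free letters of the boxes on opposite strands, were not searched. A promoter without a match can therefore still hold an element in another form. The stretches are printed 5′ to 3′ on the strand of the gene, with the element or the E-box in capitals and 25 bases on either side, because they are the sequences by which these 4 genes differ from the others in the window searched.
Txnip (chr3:96557847-96557913, plus strand; the element ends 68 bases before the start site): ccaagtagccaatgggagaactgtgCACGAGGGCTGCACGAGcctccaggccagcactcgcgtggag
Arrdc4 (chr7:68749401-68749456, minus strand; the E-box ends 187 bases before the start site): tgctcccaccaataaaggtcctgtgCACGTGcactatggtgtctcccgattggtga
Mlx (chr11:101087225-101087280, plus strand; the E-box ends 34 bases before the start site): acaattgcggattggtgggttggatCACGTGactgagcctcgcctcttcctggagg
Mlxipl (chr5:135089767-135089822, plus strand; the E-box ends 92 bases before the start site): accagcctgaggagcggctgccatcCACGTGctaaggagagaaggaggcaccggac
The remaining promoters in the table, those of Slc2a1, Slc2a8, Slc2a10, Mlxip and the second of Mlxipl, held neither motif. A match describes the letters of the window and does not show that a factor binds there.

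Libraries at 5 mM glucose held 17998905 to 36692484 estimated counts, with a median of 23880323, and those at 25 mM held 14815285 to 23129541, with a median of 20436305. These totals, from amplified read pairs without molecular identifiers, limit the counting error only. Levels are given as counts per 1000000 of the library total (CPM) after scaling by edgeR's trimmed mean of M values, and both libraries of each biological replicate were summed before testing. The technical replicates of some samples were far apart, and limma-voom estimated a correlation of only 0.166 between technical replicates over all genes. The first library of 25 mM replicate 2 was the shallowest and held the lowest level of 5 of the 10 genes (Slc2a1, Slc2a10, Txnip, Arrdc4 and Mlx). The second library of 5 mM replicate 1 had the lowest Txnip, Slc2a1 and Arrdc4 levels of the 6 libraries at 5 mM. Results are therefore also given by batch, and without these libraries where this changes them.

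Between 25 mM and 5 mM glucose, none of the 9 genes that could be tested passed the threshold of an FDR under 0.05 in the edgeR quasi-likelihood test, where 1.98% of 21061 genes did. At an unadjusted p under 0.05 there were 2 of 9, Txnip and Slc2a10, against 28.7% of all genes. DESeq2 on the same sums passed 1 of the 9, Txnip, against 16.6% of all genes, and limma-voom on the 12 libraries passed none, against 5.22%. The fitted log2 fold change was below 0 for 9 of 9 genes, as for 50.7% of all genes, and its median was -0.35 beside -0.01 over all genes. Slc2a4 was below the filter on low counts and was not tested. These are whole retinas, so fewer cells of a type and less RNA per cell cannot be told apart.

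**Figure D1:**
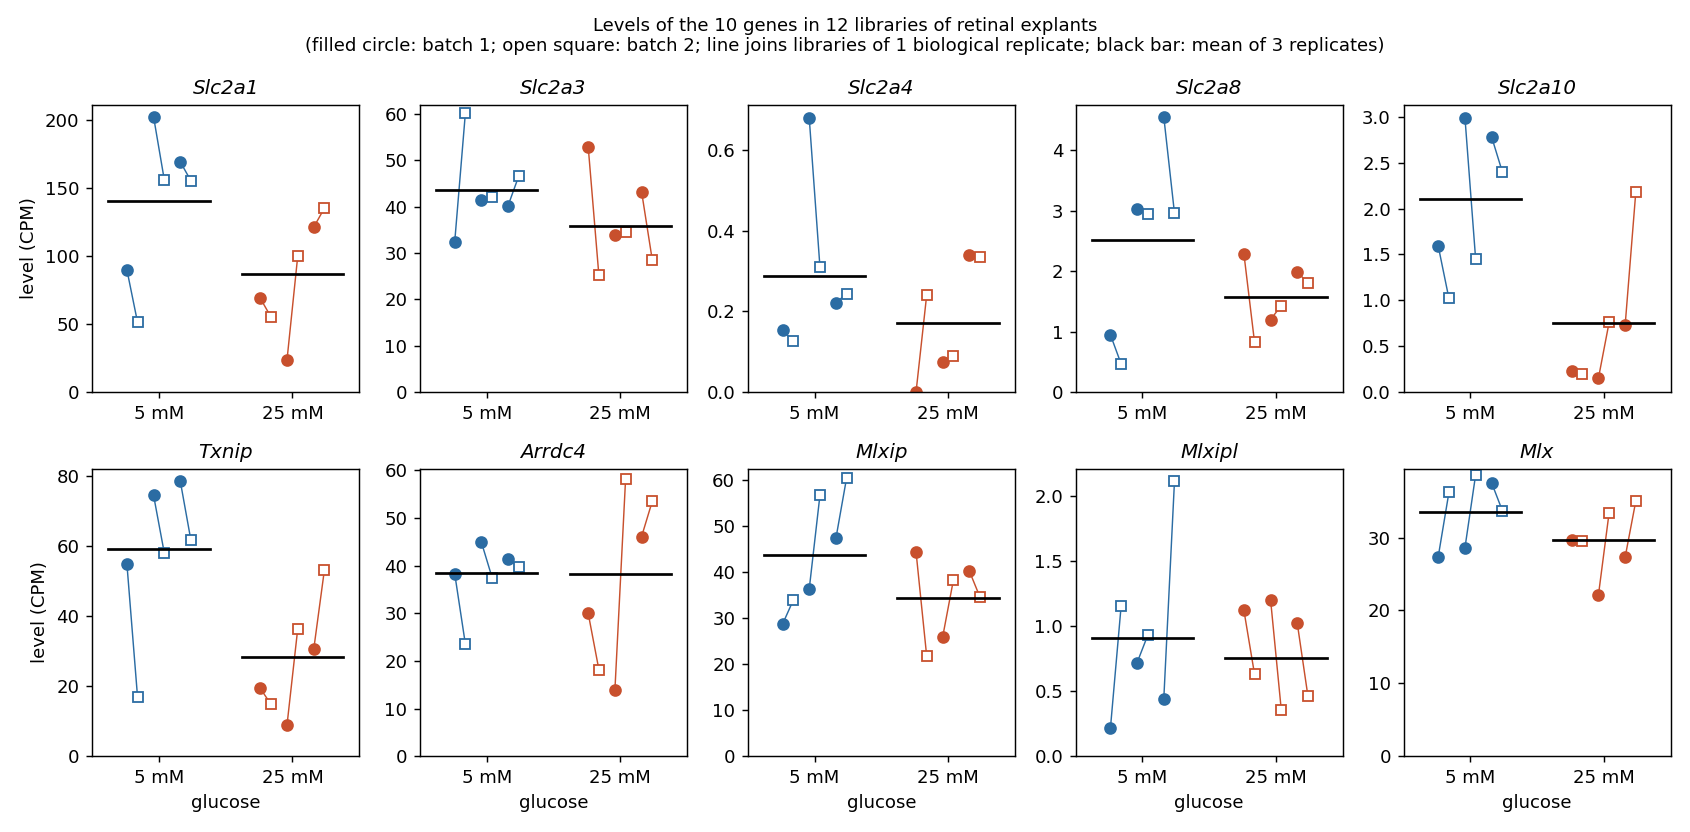
Level of each of the 10 genes (CPM, linear axis from 0) at 5 mM (blue) and 25 mM (red) glucose, with 1 point per library, filled circles for batch 1, open squares for batch 2, a line joining the libraries of 1 biological replicate and a black bar at the mean of 3 replicates. Txnip lay between 16.9 and 78.7 CPM at 5 mM and between 9.03 and 53.3 CPM at 25 mM, and for all 10 genes the ranges of the libraries overlapped between the groups.

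Slc2a1 encodes GLUT1, the high-affinity carrier for basal glucose uptake, and lies at chr4:119108711-119137983 on the plus strand. Its level at 5 mM glucose was 74.8, 183 and 163 CPM in replicates 1 to 3, and at 25 mM it was 60.5, 69.8 and 129 CPM. The groups overlapped, because the first replicate at 5 mM lay near the low replicates at 25 mM. The mean of 3 replicates was 140 ± 57.5 CPM (SD) at 5 mM against 86.6 ± 37.4 CPM at 25 mM, and the fitted log2 fold change was -0.69 ± 0.39 (SE), with an FDR of 0.265. In the libraries of 25 mM replicate 2 it measured 23.9 CPM in batch 1 and 99.7 CPM in batch 2, a 4.16-fold gap between technical replicates of 1 sample. Without 5 mM replicate 1, the edgeR FDR of Slc2a1 was 0.0449, in a fit that passed 26.6% of all genes.

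Slc2a3 encodes GLUT3, the carrier typical of neurons, and lies at chr6:122727809-122801640 on the minus strand. Its levels were 44.8, 41.9 and 43.8 CPM at 5 mM and 38.3, 33.5 and 35.6 CPM at 25 mM glucose. It was the only tested gene of the set whose replicates did not overlap between groups, 1 of 9 against 31.8% of all genes. The difference was small, with a log2 fold change of -0.28 ± 0.16 (SE) and an FDR of 0.266. It lay in batch 2, where the libraries held 60.2, 42.0 and 46.6 CPM at 5 mM and 25.2, 34.6 and 28.5 CPM at 25 mM. In batch 1 the levels were 32.4, 41.5 and 40.2 CPM against 52.9, 33.8 and 43.2 CPM, and the groups overlapped.

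Slc2a4 encodes GLUT4, the insulin-responsive carrier of muscle and fat, and lies at chr11:69942539-69948188 on the minus strand. It measured 7, 23 and 10 counts at 5 mM and 5, 3 and 14 counts at 25 mM glucose, or at most 0.52 CPM. At so few counts a difference was not detectable at this depth.

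Slc2a8 encodes GLUT8, a carrier held mostly on intracellular membranes, and lies at chr2:32972990-32982083 on the minus strand. It measured 0.74, 3.03 and 3.74 CPM at 5 mM and 1.55, 1.29 and 1.88 CPM at 25 mM glucose, with the lowest and the highest value both at 5 mM. The log2 fold change was -0.67 ± 0.53 (SE) with an FDR of 0.425. Without 5 mM replicate 1, in the same fit as above, the FDR was 0.0317 for Slc2a8.

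Slc2a10 encodes GLUT10, a carrier with a known role in the arterial wall, and lies at chr2:165503787-165519917 on the plus strand. Its levels were 1.37, 2.33 and 2.60 CPM at 5 mM and 0.21, 0.52 and 1.51 CPM at 25 mM glucose. The third replicate at 25 mM lay above the first at 5 mM, and the others were apart. It had the largest fitted difference of the set, -1.48 ± 0.62 (SE) on the log2 scale, with an unadjusted p of 0.0448 from edgeR and an FDR of 0.165. The counts behind it were 9, 19 and 67 at 25 mM against 76, 103 and 122 at 5 mM. The log2 fold change was -2.54 without 25 mM replicate 3 (edgeR FDR 0.0523) and -1.02 without 25 mM replicate 1 (FDR 0.339).

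Txnip encodes the thioredoxin-interacting protein, which holds back glucose uptake and is among the genes most strongly induced by glucose in many cell types. It lies at chr3:96557957-96561883 on the plus strand, downstream of the element printed above. The levels of Txnip were 39.7, 67.8 and 70.3 CPM in the 3 replicates at 5 mM and 16.7, 25.6 and 43.1 CPM in those at 25 mM glucose. Each 25 mM replicate lay below replicates 2 and 3 at 5 mM, and 1 of them lay above replicate 1. The mean of 3 replicates was 59.3 ± 17.0 CPM (SD) at 5 mM against 28.5 ± 13.4 CPM at 25 mM, and the fitted fold was 0.481. The log2 fold change was -1.06 ± 0.36 (SE), with an unadjusted p of 0.0188 and an FDR of 0.111 in edgeR, and DESeq2 gave an adjusted p of 0.0451. An exact permutation test of log2 CPM gave p = 0.2 (two-sided), where 3 against 3 samples cannot go below 0.1. Leaving out the first library of 25 mM replicate 2 gave -0.87 ± 0.37 with an edgeR FDR of 0.223 in a fit that passed 0 of 20898 genes. Leaving out the second library of 5 mM replicate 1 gave -1.19 ± 0.32 with an edgeR FDR of 0.057, in a fit that passed 8.27% of all genes. Without 5 mM replicate 1 as a whole, Txnip was among the 4 of 9 genes that passed, with Slc2a1, Slc2a8 and Mlxip, against 26.6% of all genes in that fit.

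Arrdc4 encodes an arrestin of the same family that also acts on glucose uptake, and lies at chr7:68736995-68749241 on the minus strand. It measured 32.6, 41.9 and 40.8 CPM at 5 mM and 23.6, 40.6 and 50.5 CPM at 25 mM glucose. The highest and the lowest replicate were both at 25 mM, and the log2 fold change was -0.01 ± 0.28 (SE), with an FDR of 0.990. In the libraries of 25 mM replicate 2 Arrdc4 measured 13.8 and 58.1 CPM, the lowest and the highest of all 12 libraries. Per kilobase of transcript, the ratio of Txnip to Arrdc4 was 1.25, 1.65 and 1.72 at 5 mM and 0.738, 0.649 and 0.874 at 25 mM glucose. This ratio, which was not among the planned comparisons, did not overlap between the groups (exact permutation test, two-sided, p = 0.1, the smallest possible). The levels of 31.8% of all genes did not overlap either, and no such share is given for ratios between genes. Within batch 1 it ran from 1.47 to 1.83 at 5 mM and from 0.679 to 0.685 at 25 mM, and in batch 2 from 0.757 to 1.64 and from 0.644 to 1.02, so that the groups overlapped in batch 2 only.

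Mlxip encodes MondoA, which rests at the outer mitochondrial membrane and moves to the nucleus with glucose 6-phosphate, and lies at chr5:123394798-123457932 on the plus strand. It measured 31.4, 45.5 and 54.6 CPM at 5 mM and 32.4, 32.9 and 37.4 CPM at 25 mM glucose, with a log2 fold change of -0.35 ± 0.23 (SE) and an FDR of 0.321. The lowest replicate of all was the first at 5 mM, and without it the edgeR FDR for Mlxip was 0.0451.

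Mlxipl encodes ChREBP, the Mondo factor of liver and fat, and lies at chr5:135089890-135138382 on the plus strand. It was close to the detection limit, with 0.61, 0.81 and 1.3 CPM at 5 mM and 0.86, 0.68 and 0.72 CPM at 25 mM glucose, from 25 to 61 counts per replicate. The groups overlapped, with a log2 fold change of -0.26 ± 0.37 (SE) and an FDR of 0.656.

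Mlx encodes the shared dimer partner of both Mondo factors and lies at chr11:101087277-101092207 on the plus strand. Its levels were 31.6, 33.1 and 35.7 CPM at 5 mM and 28.8, 28.5 and 31.6 CPM at 25 mM glucose. All replicates lay between 28.5 and 35.7 CPM, with a log2 fold change of -0.18 ± 0.17 (SE) and an FDR of 0.496.

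The annotation places exons of another gene on the opposite strand for 5 of the 10 genes, and the sources do not state if reads were counted by strand. For Slc2a1, Mlxip and Mlxipl that gene (Gm12868, Gm15747 and Gm43500) measured at most 0.226 CPM. Gm15441, opposite Txnip, measured 0.0306 to 0.795 CPM, and Psmc3ip, opposite Mlx, 2.57 to 5.76 CPM.

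Each batch held 1 library of every biological replicate, so the glucose difference was computed in each batch alone and the change between batches was tested with edgeR, with the biological replicate as a term. For Txnip, batch 1 held 55.1, 74.6 and 78.7 CPM at 5 mM and 19.4, 9.03 and 30.6 CPM at 25 mM. Batch 2 held 16.9, 58.2 and 61.7 CPM at 5 mM and 14.8, 36.4 and 53.3 CPM at 25 mM. The groups were apart in batch 1 and overlapped in batch 2. The log2 fold change of Txnip was -1.84 ± 0.40 (SE) in batch 1, with an edgeR FDR of 0.0199, and -0.37 ± 0.57 in batch 2, with an FDR of 0.773. Slc2a10 showed the same order, with -2.68 ± 0.61 in batch 1 (FDR 0.0217) and -0.60 ± 0.76 in batch 2 (FDR 0.722). In batch 1 its levels were 1.59, 2.99 and 2.78 CPM at 5 mM and 0.234, 0.151 and 0.726 CPM at 25 mM, and in batch 2 they were 1.02, 1.45 and 2.40 CPM and 0.193, 0.759 and 2.18 CPM. Txnip and Slc2a10 were the 2 of 9 genes that passed an FDR under 0.05 in batch 1 alone, where 17.3% of 18969 genes passed. In batch 2 none of the 9 and none of 18811 genes passed in edgeR, while 2203 genes had an unadjusted p under 0.05, Slc2a3 and Mlxipl among them.

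The change between batches had an unadjusted p under 0.05 for 4 of 9 genes (Slc2a3, 0.0349; Txnip, 0.0375; Slc2a10, 0.0253; Mlxipl, 0.00459), beside 16.3% of 18725 genes, but an FDR under 0.05 for none of the 9 and none of all genes. The log2 fold change of Txnip was higher by 1.59 ± 0.64 (SE) in batch 2 than in batch 1, and that of Slc2a10 by 1.90 ± 0.69. Mlxipl went the other way. Its batch 1 libraries held 0.214, 0.718 and 0.442 CPM at 5 mM and 1.12, 1.20 and 1.02 CPM at 25 mM. In batch 2 it measured 1.15, 0.929 and 2.11 CPM at 5 mM and 0.628, 0.357 and 0.460 CPM at 25 mM. In the gene counts the groups were apart in both batches and in opposite directions, from 7.3 to 51.6 counts per library. These values depend on how the gene table was scaled. In batch 2 the gene counts of Mlxipl were 2.23, 1.01 and 1.54 times its summed transcript counts at 5 mM. At 25 mM they were 0.876, 1.06 and 0.637 times those counts. Whether the groups stay apart in transcript counts is not given here. The genes with the smallest change between batches were Slc2a8 (0.07 ± 0.59) and Mlx (0.09 ± 0.28). Below 0 were 7 of 9 log2 fold changes in batch 1 and 8 of 9 in batch 2, beside 49.3% and 52.1% of all genes.

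**Figure D2:**
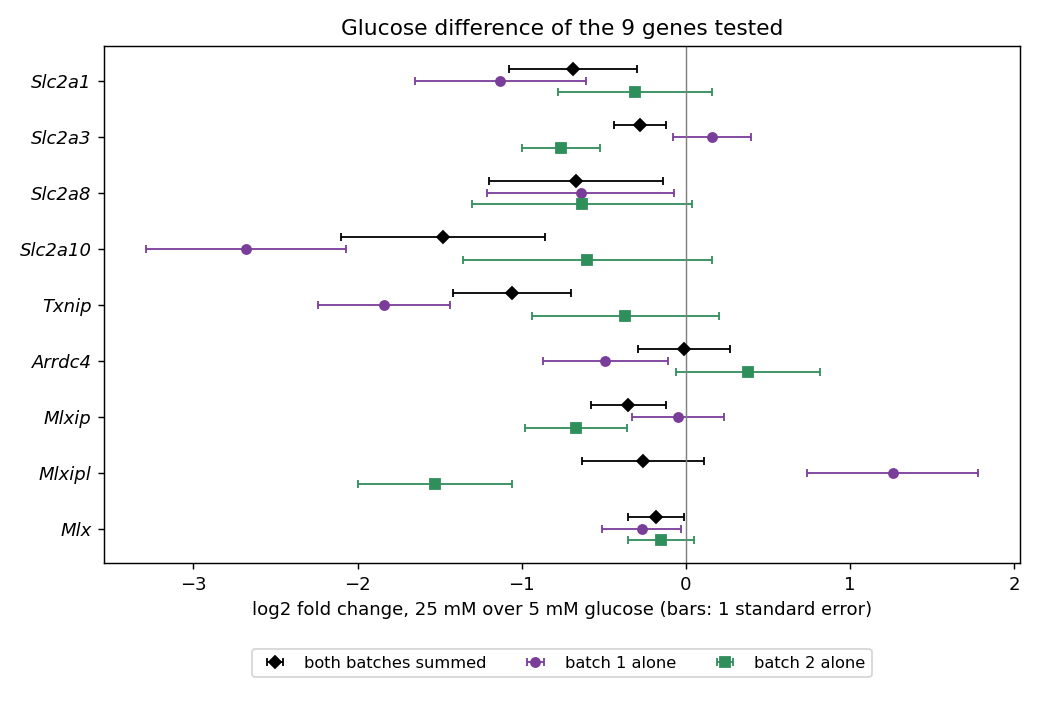
Log2 fold change of 25 mM over 5 mM glucose (x axis, bars of 1 SE) for the 9 genes tested, with both batches summed (black diamonds), batch 1 alone (purple circles) and batch 2 alone (green squares). Txnip and Slc2a10 lay farther below 0 in batch 1 (-1.84 and -2.68) than in batch 2 (-0.37 and -0.60), and Mlxipl lay on opposite sides of 0.

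Levels of different genes were set in order per kilobase of transcript, in CPM per kilobase, and are given as a description. Slc2a1 came first with 49.6 ± 23.8 (SD over 6 replicates), and its range of 28.8 to 82.1 overlapped that of Mlx, which followed with 26.0 ± 2.56. Slc2a1 was above Mlx in 6 of 6 replicates. Txnip had 16.5 ± 7.94, Arrdc4 14.2 ± 3.63, Slc2a3 11.2 ± 1.11 and Mlxip 7.43 ± 1.57. The ranges of each of these overlapped with the next, so that the order of Txnip and Arrdc4, with Txnip higher in 3 of 6 replicates, is not fixed. Below Mlxip there was a gap with no overlap, from 5.60 as the lowest replicate of Mlxip to 1.62 as the highest of Slc2a8. Slc2a8 had 0.971 ± 0.514, Slc2a10 0.404 ± 0.275, Mlxipl 0.331 ± 0.0989 and Slc2a4 0.0969 ± 0.0709, again with overlapping neighbours. MondoA mRNA was thus above ChREBP mRNA in every replicate, with 5.60 to 9.66 for Mlxip and 0.214 to 0.502 for Mlxipl. Divided by the length of the union of exons instead, the 10 genes kept their order of means at lower levels. Slc2a1 then had 32.5, Mlx 15.8, Arrdc4 9.5 and Slc2a3 5.47. By this measure the range of Slc2a1 (18.2 to 53.6) lay above that of Mlx (13.7 to 17.8). That of Arrdc4 (6.17 to 13.0) lay above that of Slc2a3 (4.46 to 6.01).

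GLUT1 and GLUT3 mRNA made up most of the transporter mRNA of the set. Per kilobase, Slc2a1 took 71.0%, 87.1% and 85.2% of the sum of Slc2a1 and Slc2a3 at 5 mM and 72.3%, 75.8% and 84.9% at 25 mM glucose. The ratio of Slc2a1 to Slc2a3 was 4.98 ± 2.24 (SD, n = 3) at 5 mM and 3.78 ± 1.61 (SD, n = 3) at 25 mM (exact permutation test, two-sided, p = 0.7). Among the SLC2 genes outside the set, Slc2a13, a proton-coupled inositol carrier, had 1.54 ± 0.66 and Slc2a9, a urate carrier, 1.52 ± 0.385, both higher on average than Slc2a8, with overlapping ranges.

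**Figure D3:**
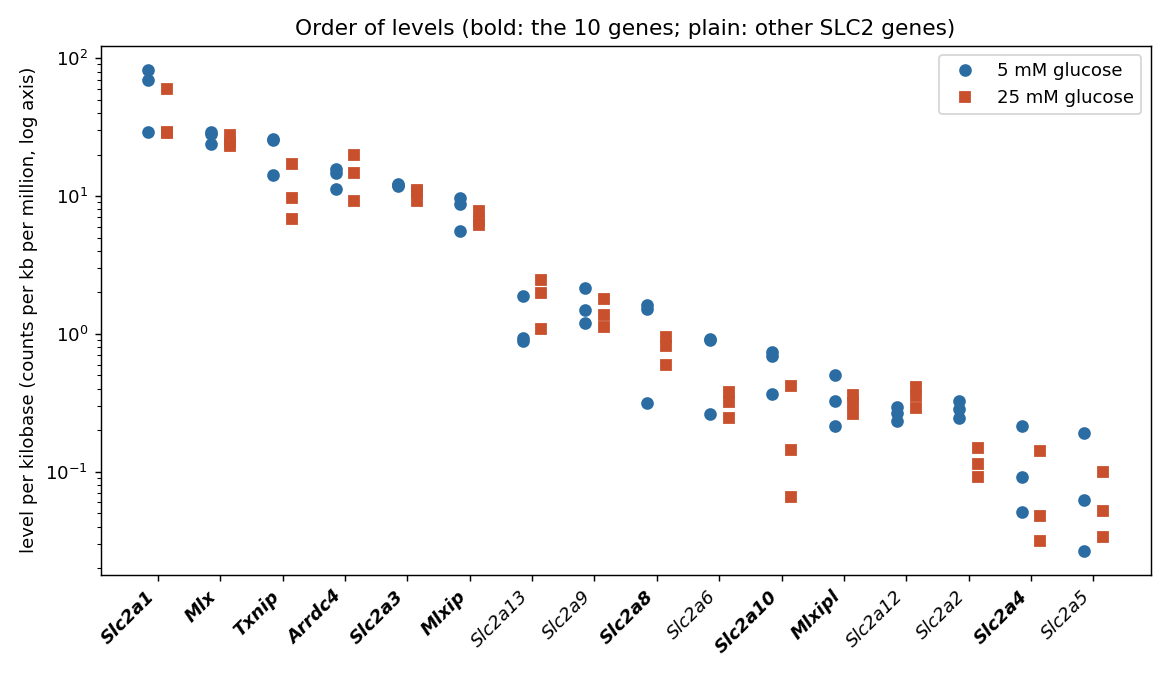
Level per kilobase of transcript (CPM per kilobase, log axis) of the 10 genes (bold) and other SLC2 genes (plain), with 1 point per biological replicate, blue circles for 5 mM and red squares for 25 mM glucose, ordered by the mean. Slc2a1, Mlx, Txnip, Arrdc4, Slc2a3 and Mlxip lay at 5.60 or above in every replicate, and the others at 2.47 or below. Slc2a7, listed at 0 in every library, is not drawn.

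Transcripts were compared for the 6 genes with at least 60 counts in every replicate and at least 2 transcripts above 10% of the counts, 14 transcripts in all. For Slc2a3 the coding transcript Slc2a3-201 held 85.0%, 85.6% and 82.9% of the counts of the gene at 5 mM and 77.3%, 76.5% and 78.3% at 25 mM glucose. The transcript Slc2a3-204, annotated as a retained intron, held 13.0%, 11.4% and 13.3% at 5 mM and 19.6%, 21.3% and 18.4% at 25 mM. These were the 2 of 14 transcripts whose groups did not overlap, against 18.5% of the 20096 transcripts that met the same rule over all genes, and as parts of the same total they are not independent. The exact permutation p was 0.1 for each (two-sided, the smallest possible) and 0.7 after adjustment over the 14. In batch 1 Slc2a3-204 held 9.01% to 17.3% at 5 mM and 18.1% to 33.8% at 25 mM, and in batch 2 10.0% to 14.4% and 15.2% to 18.9%, so the groups were apart in both batches. The coding transcript overlapped in batch 2.

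For Slc2a1 the coding transcript Slc2a1-201 held 56.2% ± 7.54 (SD, n = 3) of the counts at 5 mM and 47.8% ± 5.30 at 25 mM, and Slc2a1-204, annotated as a target of nonsense-mediated decay, 39.0% ± 5.13 and 46.6% ± 3.53, with overlapping groups. Txnip counts were divided between the coding transcripts Txnip-202, with 61.8% ± 3.81 at 5 mM and 62.5% ± 9.98 at 25 mM, and Txnip-201, with 36.0% ± 3.81 and 36.1% ± 9.82. Mlxip had a coding transcript with 61.2% ± 15.4 and 52.6% ± 11.6, and one annotated for decay with 34.3% ± 15.7 and 41.4% ± 10.8. Such shares are estimates that divide reads which match several transcripts.

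The pathways around these genes were described with lists written from general knowledge. Of the other target genes of ChREBP or MondoA, 16 of 18 were tested and 1 passed an FDR under 0.05, Scd1, which fell. Scd1 encodes the stearoyl-CoA desaturase that makes monounsaturated fatty acids, and it measured 23.3, 25.5 and 21.6 CPM at 5 mM and 8.60, 11.7 and 10.3 CPM at 25 mM glucose. Its log2 fold change was -1.21 ± 0.21 (SE), with an edgeR FDR of 0.0389, and its groups were apart. The call was lost with any replicate but the first at 5 mM left out (FDR 0.0524 to 0.159), without the first library of 25 mM replicate 2 (FDR 0.129) and in batch 2 alone (-0.80 ± 0.30, FDR 0.403). In these fits 0 genes of the whole table passed, except without 25 mM replicate 3, where 494 did. The log2 fold change of Scd1 was -1.30 to -1.09 with 1 replicate left out. For this list as a whole, the log2 fold change was below 0 for 12 and above 0 for 4 of the 16 genes, with a median of -0.48. Over all genes 50.7% were below 0. In edgeR 9 of the 16 had an unadjusted p under 0.05, beside 28.7% of all genes. DESeq2 passed 7 of them, beside 16.6% of all genes, and limma-voom passed 1, beside 5.22%. Of the 7, Acacb, Gpd1, Klf10, Rgs16, Bhlhe40 and Scd1 were below 0 and Pnpla3 was above 0.

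Of the 13 genes listed as trafficking and surface partners of glucose transporters, 1 passed, Nxnl2, which rose. Its place in this list does not show that its product acts on a glucose transporter. Nxnl2 encodes a thioredoxin-like trophic factor of photoreceptors, and it measured 7.28, 7.72 and 7.81 CPM at 5 mM and 15.4, 14.8 and 18.0 CPM at 25 mM glucose. Its log2 fold change was 1.08 ± 0.21 (SE), with an edgeR FDR of 0.0475. It too lost its call with any replicate but the first at 5 mM left out (FDR 0.0627 to 0.186) and without the first library of 25 mM replicate 2 (FDR 0.129), and with technical replicates scaled to equal depth (FDR 0.0503). In these fits 0 genes of the whole table passed, except without 25 mM replicate 3 (494 genes) and at equal depth (383 genes). The log2 fold change of Nxnl2 was 0.99 to 1.15 with 1 replicate left out. In batch 1 alone the value was 1.10 ± 0.28 (FDR 0.0326) and in batch 2 alone 1.07 ± 0.26 (FDR 0.391). Of the 13 genes, 10 were below 0 and 3 above, with a median of -0.30, where 50.7% of all genes were below 0. In edgeR 5 of the 13 had an unadjusted p under 0.05, beside 28.7% of all genes. DESeq2 passed 3 of the 13, Nxnl2, Nxnl1 and Tbc1d1, beside 16.6% of all genes, and limma-voom passed 2, beside 5.22%. Nxnl1, which encodes rod-derived cone viability factor, had a log2 fold change of 0.84 ± 0.25 (SE) and an edgeR FDR of 0.0841. Tbc1d1 encodes a Rab GTPase-activating protein that holds back GLUT4 vesicles, and it measured 28.2, 34.1 and 28.4 CPM at 5 mM and 14.3, 17.5 and 20.1 CPM at 25 mM, with -0.80 ± 0.20 and an edgeR FDR of 0.0701. Rod marker genes were higher at 25 mM as well, with 5 of 9 passing the same test, and their part in the level of Nxnl2 was not tested.

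No gene of the other lists passed the edgeR threshold, and their 2 largest differences among genes with a mean of at least 1 CPM are given. DESeq2 passed Txnrd1, Myc, Mxd4, Hk3 and Slc2a2 from these lists, where it passed 16.6% of all genes. From the same lists limma-voom passed 0, where it passed 5.22% of all genes. Over all genes 28.7% had an unadjusted p under 0.05 in edgeR and 50.7% were below 0. Of 7 tested alpha-arrestins and thioredoxin partners of TXNIP (median -0.47, 6 below 0, 3 with an unadjusted p under 0.05), Txnrd1, which encodes thioredoxin reductase, had 313, 455 and 461 CPM at 5 mM and 114, 204 and 255 CPM at 25 mM, a log2 fold change of -1.10 ± 0.31 (SE) with an FDR of 0.0768. Txn1, which encodes thioredoxin, had 203, 184 and 208 CPM and 78.8, 147 and 148 CPM, with -0.67 ± 0.25 and an FDR of 0.127. Both had replicates that did not overlap between groups.

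Of the 10 genes of the MYC/MAX/MLX network (median -0.37, 8 below 0, 3 with an unadjusted p under 0.05), Myc measured 24.9, 38.1 and 38.6 CPM at 5 mM and 6.45, 16.7 and 19.6 CPM at 25 mM, with -1.25 ± 0.40 (SE) and an FDR of 0.0963. Mxd4, which encodes a MAX partner that opposes MYC, measured 32.9, 76.0 and 66.5 CPM and 32.6, 22.7 and 35.2 CPM, with -0.95 ± 0.32 and an FDR of 0.107. MYC and MXD4 dimerize with MAX, while MXD4 can also pair with MLX.

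Of the 5 hexokinases, which trap glucose in the cell as glucose 6-phosphate (median -0.41, 3 below and 2 above 0, 3 with an unadjusted p under 0.05 against 28.7% of all genes), Hk3 measured 4.90, 11.5 and 13.1 CPM at 5 mM and 1.67, 3.69 and 5.27 CPM at 25 mM, with -1.47 ± 0.50 (SE) and an FDR of 0.108. Hk1, the hexokinase of most tissues, measured 123, 227 and 189 CPM and 328, 181 and 267 CPM, with 0.53 ± 0.29 and an FDR of 0.255. Hk2, the isoform enriched in photoreceptors and named after its values were seen, measured 52.5, 47.4 and 54.1 CPM and 69.7, 69.0 and 76.4 CPM, with 0.48 ± 0.15 and an FDR of 0.0954, and its groups were apart. With a stricter filter on low counts the median of the hexokinases was 0.09. Of 6 tested sugar transporters outside the set (median -0.36, 3 with an unadjusted p under 0.05), Slc50a1, a SWEET family carrier, measured 17.6, 24.8 and 22.1 CPM at 5 mM and 15.1, 12.6 and 17.2 CPM at 25 mM, with -0.52 ± 0.22 (SE) and an FDR of 0.167. Slc2a13 measured 12.2, 5.34 and 5.51 CPM and 13.9, 12.2 and 6.20 CPM, with 0.48 ± 0.43 and an FDR of 0.466. Slc2a2 had a larger difference but lay under the mean of 1 CPM set for naming. It measured 1.28, 1.36 and 1.06 CPM at 5 mM and 0.371, 0.493 and 0.610 CPM at 25 mM. Its log2 fold change was -1.32 ± 0.33 (SE), with an edgeR FDR of 0.0674, and its groups were apart.

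**Figure D4:**
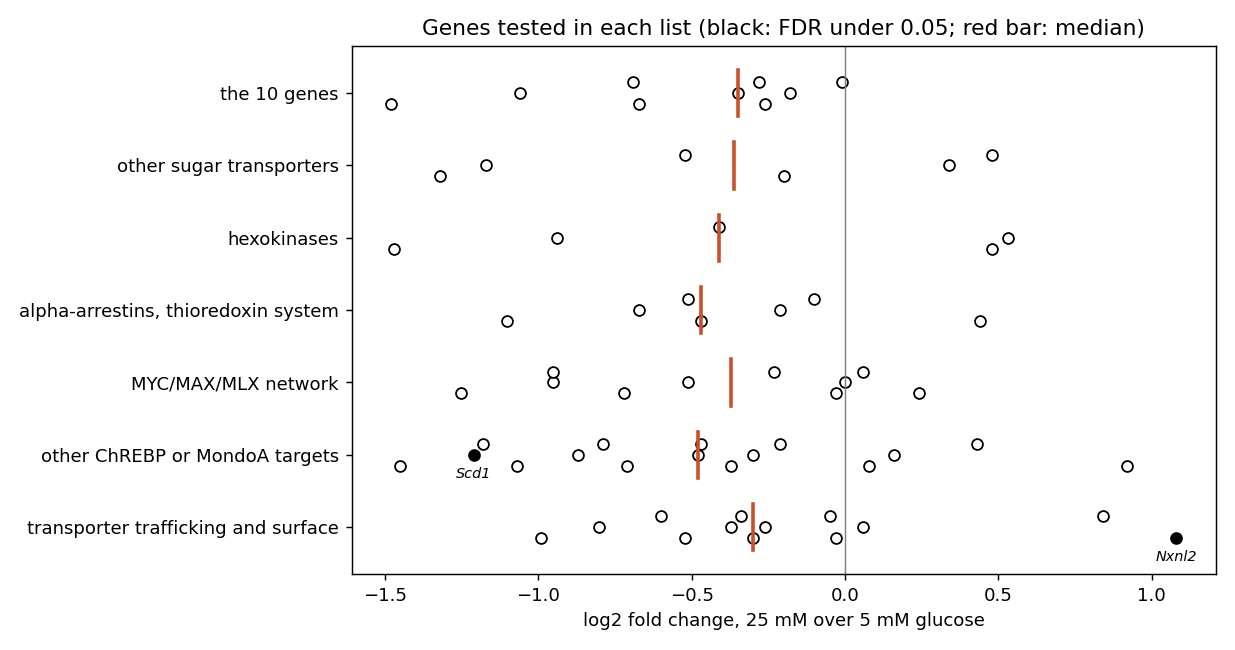
Log2 fold change of 25 mM over 5 mM glucose (x axis) for each tested gene of the 10 genes and of 6 pathway lists, 1 circle per gene, black where the edgeR FDR was under 0.05, with a red bar at the median of each list. Every median lay below 0, from -0.48 to -0.30, beside -0.01 for all genes (that of the hexokinases was 0.09 with a stricter filter on low counts), and the genes past the threshold were Scd1 (-1.21) and Nxnl2 (1.08).

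Marker genes of some retinal cell types differed between the groups beside these genes, and those of others did not lie to one side. Vascular endothelium markers were below 0 for 8 of 8 genes (median -1.79), with 0 past the FDR of 0.05 and 7 with an unadjusted p under 0.05 in edgeR, 7 past that FDR in DESeq2 and 0 in limma-voom. Their summed level was 975.5 to 1856 CPM in the replicates at 5 mM and 413.7 to 819.6 CPM at 25 mM. Pericyte and smooth muscle markers summed to 356.1 to 451.0 CPM and 231.2 to 386.4 CPM (7 of 8 below 0), and microglia markers to 92.79 to 209.1 CPM and 51.68 to 110.4 CPM (8 of 8 below 0), beside 50.7% of all genes below 0. In edgeR 0 of 8 passed the FDR of 0.05 in either list, with 7 and 5 at an unadjusted p under 0.05, while DESeq2 passed 7 and 3, and limma-voom 0 of both. Rod markers went the other way, with 9 of 9 above 0. The rod sums of the replicates were 2985 to 5308 CPM at 5 mM and 6597 to 8585 CPM at 25 mM. Of these 9 markers, 5 passed the FDR of 0.05 in edgeR, 7 in DESeq2 and 6 in limma-voom. By library the rod sums overlapped, with 2936 to 5461 CPM at 5 mM and 4476 to 11760 CPM at 25 mM. The value of 4476 CPM was in the second library of 25 mM replicate 2, and its first library held 10590 CPM. Cone markers were above 0 for 5 of 8 genes (median 0.48), with 1 past the edgeR threshold, 4 passing in DESeq2 and 0 in limma-voom. The markers of Mueller glia (5 of 8 above 0, median 0.19), bipolar cells (4 of 7, median 0.53), amacrine cells (4 of 8, median 0.04) and ganglion cells (5 of 8, median 0.15) lay on both sides of 0, and 0 of them passed in edgeR, while DESeq2 passed 0, 2, 3 and 1. Their numbers at an unadjusted p under 0.05 in edgeR were 2, 4, 3 and 1. All marker counts stand beside the shares over all genes. These were 28.7% at an unadjusted p under 0.05 and 1.98% at an FDR under 0.05 in edgeR. In DESeq2 16.6% of all genes passed, and in limma-voom 5.22%. The summed level of the amacrine markers was nonetheless apart, with 457.8 to 562.1 CPM at 5 mM and 295.0 to 441.2 CPM at 25 mM. The sums of the Mueller glia, bipolar and ganglion cell markers overlapped between the groups. Retinal pigment epithelium, another site of Slc2a1, was removed in dissection. Its defining marker Rpe65 measured at most 0.0904 CPM, and its 7 markers summed to 14.43 to 16.29 CPM and 7.859 to 11.14 CPM, mostly from Mitf.

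By library, the Txnip level and the endothelial sum were both low in the libraries that stood apart. The first library of 25 mM replicate 2, lowest in Txnip with 9.03 CPM, had an endothelial sum of 341.0 CPM, and the second had 36.4 CPM and 862.0 CPM. For 5 mM replicate 1, Txnip was 55.1 CPM in batch 1 and 16.9 CPM in batch 2, and the endothelial sum was 1260 and 546.2 CPM. In 25 mM replicate 1 alone the 2 levels moved in opposite directions between batches. There Txnip was 19.4 CPM in batch 1 and 14.8 CPM in batch 2. The endothelial sum was 337.0 CPM, the lowest of the 12 libraries, and 513.8 CPM. In batch 1 the endothelial sums were 1260 to 2354 CPM at 5 mM and 337.0 to 591.0 CPM at 25 mM, and the median log2 fold change of these markers was -2.87. In batch 2 the sums were 546.2 to 1503 CPM and 513.8 to 1006 CPM, and the median was -0.63. The part of the vascular markers in the levels of Txnip, Slc2a1 and Slc2a10 was not tested.

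**Figure D5:**
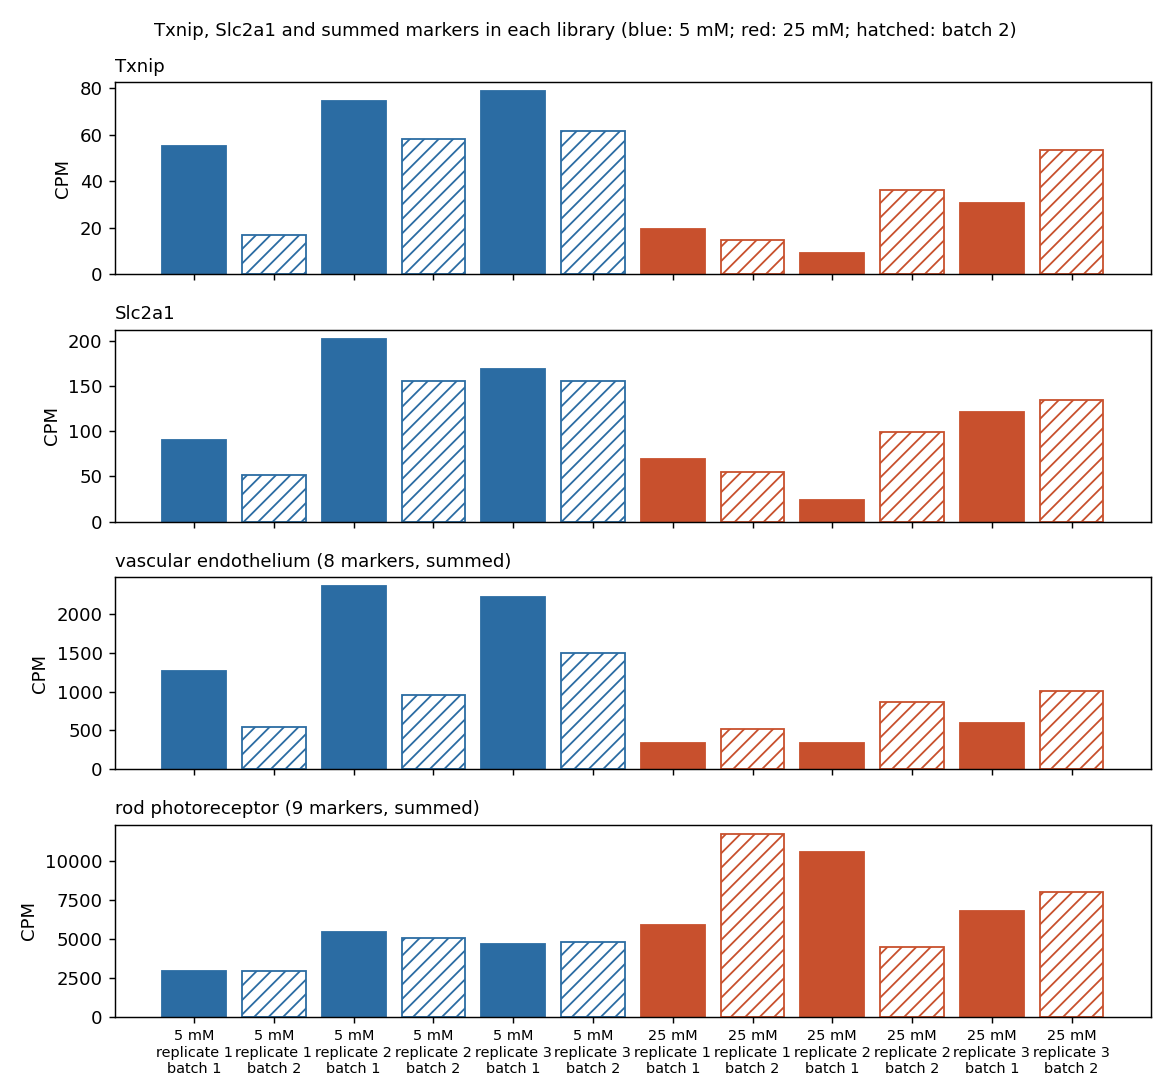
Levels (CPM, bars from 0) of Txnip, Slc2a1, the sum of 8 vascular endothelium markers and the sum of 9 rod photoreceptor markers in each of the 12 libraries, blue for 5 mM and red for 25 mM glucose, hatched for batch 2. Txnip and the endothelial sum were both low in the second library of 5 mM replicate 1 (16.9 and 546.2 CPM) and in the first library of 25 mM replicate 2 (9.03 and 341.0 CPM). Rod markers ran from 2936 CPM in the second library of 5 mM replicate 1 to 11760 CPM in the second library of 25 mM replicate 1.

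The genes most like Txnip and Slc2a1 were found among 14236 protein-coding genes by the root mean square difference of centred log2 CPM over the 12 libraries. For Txnip they were Stat6 (0.22), Wipf1 (0.23) and Cgnl1 (0.24), where the median over all genes was 1.01. Stat6, which encodes a transcription factor of cytokine signalling, ran from 7.15 to 88.7 CPM, Wipf1, which encodes a partner of the actin regulator WASP, from 4.82 to 37.0 CPM, and Cgnl1, which encodes a junction protein, from 22 to 210 CPM. For Slc2a1 they were Agpat2 (0.19), Slc12a4 (0.22) and Prss23 (0.23), where the median was 0.90. Agpat2 encodes an enzyme of glycerolipid synthesis, Slc12a4 a potassium-chloride cotransporter and Prss23 a serine protease. Each of these 6 genes, like Txnip and Slc2a1, had its lowest level in the first library of 25 mM replicate 2. They were chosen for their likeness over these same 12 libraries, so this follows at least in part from the choice.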

How the data were processed

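The authors deposited estimated counts (expected counts) per gene and per transcript for 12 libraries, without normalization and with technical replicates apart. The counting tool is not given in the sources used here. The submitters' processing notes name GRCm38, and symbols came from GENCODE M21, which named 90.7% of 53707 genes. All nonzero gene values are fractional (100% of them not whole), so they were not the plain counts foreseen, and sums of technical replicates were rounded. In genes with 1 transcript, 90.31% of gene to transcript ratios lay within 2% of the library median (at least 50 counts), and the gene table appears rescaled by transcript length.

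Genes were filtered with filterByExpr, scaled by TMM and tested with the quasi-likelihood test of edgeR 4.0.16 (version 3 method, no replicate block, R 4.3.3), with Benjamini-Hochberg adjustment (FDR) over 21061 genes. The common biological coefficient of variation was 0.297. Log2 CPM used a prior count of 2. SE is the log2 fold change divided by the root of F. The procedure was tested on simulated data. DESeq2 1.42.0, limma 3.58.1, Python 3.11.15, pandas 2.3.3, scipy 1.17.1 and matplotlib 3.10.9 were also used.

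The genes, lists, tests and naming rules were chosen with earlier results of these data known. Named were all 10 genes, and of each list the genes with an FDR under 0.05 or, where there were 0, the 2 with the largest absolute log2 fold change at a mean of at least 1 CPM. Alternatives covered normalization, test, filter, batches, replicate block, transcript sums and each replicate left out. Equal-depth sums, leaving out either single library and limma-voom were added after seeing the data. The ratios of Txnip to Arrdc4 and of Slc2a1 to Slc2a3 were not among the planned comparisons either.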

Additional observations from a re-analysis of the deposited data

Results flagged for a closer look

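In 20 groups of 6 libraries (10 genes at 2 glucose concentrations), 3 held a library far from the others by Dixon's test. Chance alone would give about 1 for independent libraries. The 6 libraries are 3 biological replicates measured as 2 technical replicates each, so this figure is only a rough guide. Slc2a4 measured 0.678 CPM in the first library of 5 mM replicate 2, against 0.127 to 0.31 CPM in the other 5 mM libraries. Slc2a10 measured 2.18 CPM in the second library of 25 mM replicate 3, against 0.151 to 0.759 CPM in the other 25 mM libraries. Arrdc4 measured 23.5 CPM in the second library of 5 mM replicate 1, against 37.5 to 44.9 CPM in the others at 5 mM. The glucose difference of Mlxipl changed by -2.86 ± 0.73 (SE, log2) from batch 1 to batch 2, with an unadjusted p of 0.00459 and an FDR of 0.195 in edgeR. In batch 1 each 25 mM library was above each 5 mM library, and in batch 2 each was below, from few counts. This holds for the gene counts, which were 0.634 to 2.23 times the summed transcript counts of Mlxipl, depending on the library.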

How the results depend on the processing

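Genes passing an FDR under 0.05 numbered 417 as reported, 3489 with DESeq2, 1979 without a filter, 2918 with 12 libraries and a batch term, 3279 in batch 1, 0 in batch 2, 1731 without the second library of 5 mM replicate 1, 0 without the first of 25 mM replicate 2, 978 with limma-voom and 0 to 5845 with 1 replicate left out. It was 5845 without 5 mM replicate 1, 494 without 25 mM replicate 3 and 0 without any of the others. At an FDR under 0.01 and a fold over 2 the count was 0 as reported, 1387 with DESeq2, 275 without a filter, 109 with 12 libraries, 367 in batch 1, 56 without the second library of 5 mM replicate 1, 13 with limma-voom and 0 to 108 with 1 replicate left out. The fit with 12 libraries and a batch term had no term for the biological replicate. Its counts of 2918 and 109 thus treat technical replicates as independent samples, which they are not. Of the 10 genes, 1 passed with DESeq2, 2 in batch 1 and 0 to 4 with 1 replicate left out (4 without 5 mM replicate 1). Change between batches passed for 127 genes without a filter, against 0. With a replicate block 990 genes passed, 1 of the 10 among them (Txnip, FDR 0.0413). With that block Scd1 had an FDR of 0.0439 and Nxnl2 of 0.0674. Same-numbered samples correlated at -0.01, -0.45 and 0.28, and different-numbered samples at -0.42 to 0.51. The numbers were not read as pairs in the reported fit, but so few values cannot settle if they mark pairs. Higher calls were 74.1% as reported, 83.7% with library totals and 42.4% with DESeq2. The direction held in all 21 alternatives for Slc2a1, Slc2a8, Slc2a10, Txnip, Mlxip and Mlx. It turned for Slc2a3 in batch 1 (0.16), for Mlxipl in batch 1 (1.26), with transcript sums (0.07) and without 5 mM replicate 3 (-0.48 to 0.07 with 1 replicate left out), and for Arrdc4 with library totals (0.04), a stricter filter (0.04), in batch 2 (0.38), with transcript sums (0.08), without the first library of 25 mM replicate 2 (0.21) and with 1 replicate left out (-0.26 to 0.25). The Txnip FDR ran from 0.0199 to 0.773. The causes were not tested.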

Other observations

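The carbohydrate response element as spelled above was found in 16 of the 32851 promoters searched, which belong to 15 genes by symbol. Of these, 12 were tested between 25 mM and 5 mM glucose, and in edgeR 0 had an FDR under 0.05, beside 1.98% of all genes, while 4 had an unadjusted p under 0.05, beside 28.7% of all genes, and 3 an FDR under 0.05 in DESeq2, beside 16.6%. The log2 fold change was below 0 for 7 and above 0 for 5 of them, Txnip included, with a median of -0.15. Txnip had -1.06 ± 0.36 (SE). Farther below 0 were Nfkb2, which encodes a subunit of NF-kappaB, with -1.64 ± 0.53 and an FDR of 0.0989, and Man2b2, which encodes a lysosomal mannosidase, with -1.30 ± 0.54 and an FDR of 0.159. Both were named after their values were seen. Fnip1, which encodes a partner of folliculin, measured 204 CPM on average with a log2 fold change of 0.20 ± 0.24. The presence of the letters in a promoter is not evidence of binding.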
